A study of Caenorhabditis elegans with 4 samples.

Results

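The regions described are the places on chromosome II of Caenorhabditis elegans where ChIP-seq, the sequencing of DNA recovered by chromatin immunoprecipitation, detected ZTF-4 in L2 larvae. They were taken by chromosome name alone, so neither strength nor replicate support entered their choice. The combined site list held 236 of its 1828 sites on II, the list of ChIP replicate 1 held 113 of 744, and the list of ChIP replicate 2 held 119 of 813. The worms were hermaphrodites of strain OP322, genotype unc-119(ed3) with the transgene wgIs322, in which ztf-4 is fused to TY1, EGFP and FLAG tags and which also carries unc-119(+). They were raised at 20 degrees Celsius and fixed with 2% formaldehyde, and the fusion protein was recovered with a goat antibody against GFP. All 4 samples, 2 ChIP and 2 input, share this genotype and stage, so no sample lacked the fusion, and the input samples have no values analysed here. The transgene was introduced by biolistic bombardment. Whole larvae were used, so a site may stem from any tissue that makes the fusion protein, and nothing in the labels says whether replicates were separate cultures.

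Transcription factors bind short DNA motifs, and ChIP-seq recovers the sheared fragments to which they were crosslinked, so a site spans the bound DNA with its flanks. ZTF-4 is named as a member of the zinc finger family of putative transcription factors. The chromosomes of the worm have no single centromere, and those other than X share a plan in which a central part with little recombination and many conserved genes lies between arms with more recombination and more repeats. Positions are 1-based on WormBase WS180. A gene annotation and genome sequence of this release were not used here, so sites are named by position only. Strength is the authors' q-value, the false discovery rate at which PeakSeq called a site, and −log10 q is larger for stronger sites. Read depth is unknown, so q cannot be compared between lists as occupancy.

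The sites of II spanned a wide range of strength and width. In the combined list q ran from 2.58e-210 to 0.000148 with a median −log10 q of 7.20, against 6.56 over the 1592 sites of the other chromosomes. Widths ran from 4 to 6550 bp with a median of 678 bp, against 631 bp elsewhere. Among single chromosomes, X had a larger median width, 790 bp, and III a close median −log10 q, 7.07. In replicate 1 the median −log10 q was 6.38 on II and 6.33 elsewhere, and in replicate 2 it was 6.92 and 6.38. The combined sites covered 258359 bp of II, or 1.70% of its span, against 1.74% of the other chromosomes together. Coverage in the replicate lists was 0.926% of II against 0.716% elsewhere in replicate 1 and 0.986% against 0.842% in replicate 2. The higher replicate coverage of II rests largely on a pair of very broad loci that the combined list lacks, described further on. They made up 11.0% and 7.43% of the bases covered on II in replicate 1. In replicate 2 they made up 10.5% and 6.64%.

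ZTF-4 sites were sparser on the left arm of II than in its centre and on its right arm. Arm here means the outer 25% of the span on either side, and centre the 50% between. No boundary of recombination or repeats was used to set them. The leftmost 25% of the span, up to position 3807770, held 13 combined sites, or 3.41 per Mb. The central 50% held 153 sites, or 20.1 per Mb, and the rightmost 25%, from 11423311, held 70, or 18.4 per Mb. Of those 70, 33 lay between 75 and 80% of the span, next to the centre. The following steps of 5% held 7, 11, 7 and 12. Taken whole, the other chromosomes together had 18.8 per Mb and II had 15.5 per Mb. Singly they had 23.7 per Mb on I, 27.2 on III, 21.3 on IV, 12.3 on V and 13.2 on X. The density of II thus lay within their range. Densities in the centres and outer parts of the other chromosomes were not computed, so the parts of II have no like counterpart here. Replicate 1 placed 3, 72 and 38 sites in the left, central and right parts of II, and replicate 2 placed 3, 77 and 39. The lean to the right was known from these lists before the comparison below was chosen.

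In the combined list no other chromosome had so one-sided a distribution. Of the 83 combined sites of II in its outer parts, 84.3% lay on the right (95% Wilson interval 75 to 90.6%), against 49.3% of the 633 outer sites of the other 5 chromosomes. The odds ratio was 5.54 (two-sided Fisher's exact test, adjusted p = 2.46e-09 over 6 chromosomes). The right held 38 of 41 outer sites in replicate 1 (92.7%, against 48.0% elsewhere, Fisher's exact adjusted p = 9.36e-08) and 39 of 42 in replicate 2 (92.9%, against 48.5%, adjusted p = 1.09e-07). In the combined list the same test also passed for III (66.7% on the right against 50.5%, Fisher's exact adjusted p = 0.00224). It passed for IV (43.3% against 56.2%, Fisher's exact adjusted p = 0.00744) and V (35.1% against 55.6%, adjusted p = 0.00208). A difference from the rest was thus not particular to II, but the rest of each of these holds the sites of II. Their difference from the chromosomes other than II was not tested. These tests take sites as independent, which neighbouring sites are not. With sites within 20 kb of each other counted once, 29 of 38 outer groups of II lay on the right (76.3%, against 49.5% elsewhere, Fisher's exact adjusted p = 0.011).

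**Figure D1:**
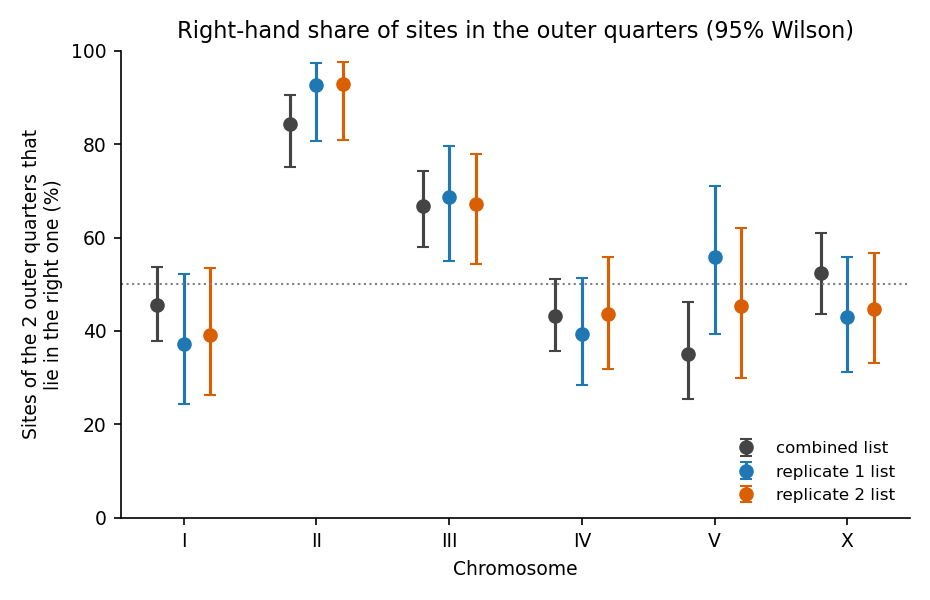
For each chromosome (horizontal axis), the points give the percentage of sites in the outer 25% on either side that lie on the right, and the bars the 95% Wilson interval, for the combined and both replicate lists. Chromosome II stands at 84.3% (combined), 92.7% (replicate 1) and 92.9% (replicate 2), above the dotted line at 50%.

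The left arm held a single site that both replicates shared. It ran from 2972658 to 2979137, was 6480 bp wide and had a combined q of 2.64e-35, a replicate 1 q of 8.90e-16 and a replicate 2 q of 5.19e-15. It was the second widest combined site of II and its 21st strongest. Its replicate sites were narrower, at 2430 bp in replicate 1 and 1182 bp in replicate 2. Both lay within 2972842 to 2975271, so much of the combined width was called in neither replicate. Of the other left-arm sites, 4 were found in 1 replicate and 8 in neither. The strongest of those, from 216478 to 216988, had q = 2.48e-10 in the combined list and 3.41e-06 in replicate 2, with no site in replicate 1. No combined site lay between 1321293 and 2564943, a gap of 1243649 bp and the longest between combined sites of II. Replicate 1 had no site from 411203 to 2972842 and replicate 2 none from 1320777 to 2973316. In bins of 1 Mb, the stretch from 1000001 to 2000000 held 1 combined site.

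The densest bins lay in the centre and at the edge of the right arm. Bins from 5000001 to 6000000, from 8000001 to 9000000 and from 11000001 to 12000000 held 27 combined sites each, against a median of 15 over the 15 full bins. They differed in replicate support. The first held 7 sites in replicate 1 and 6 in replicate 2, and 5 of its 27 combined sites were found in both. The bin from 8000001 held 19 and 18 replicate sites with 15 of 27 found in both, and the bin from 11000001 held 14 and 14 with 12 of 27. Between the replicates, the counts of the 15 bins gave Pearson's r = 0.923 and Spearman's rho = 0.892, as a description of bins that share both libraries.

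**Figure D2:**
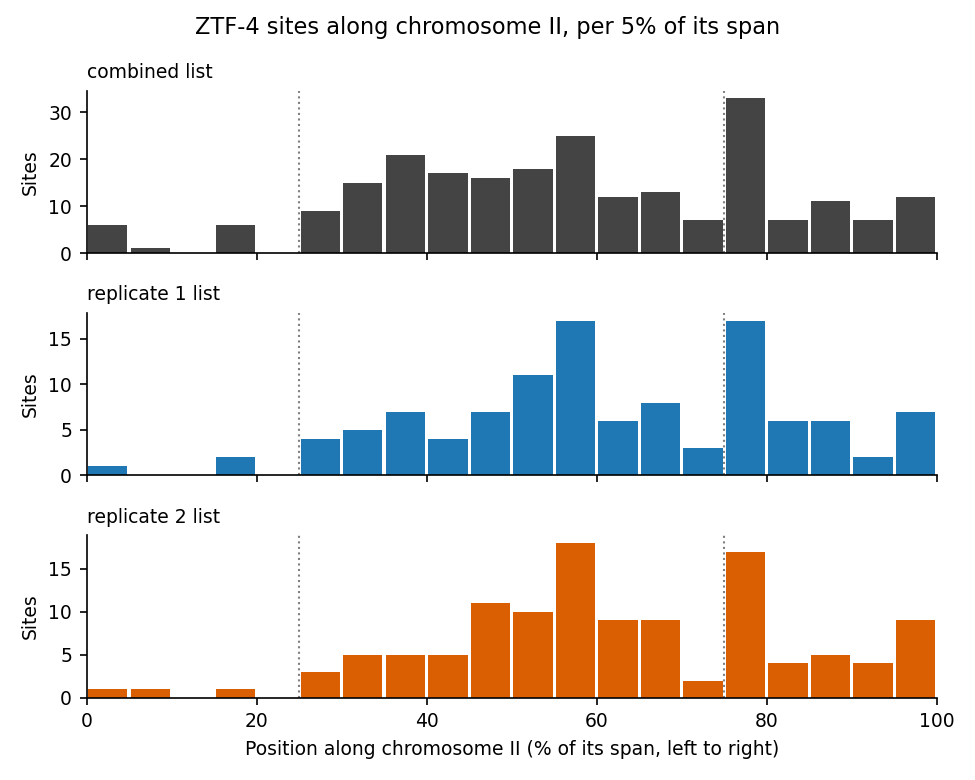
The bars count sites in steps of 5% of the span of chromosome II (horizontal axis, left to right) for the combined list, replicate 1 and replicate 2, with dotted lines at 25 and 75%. The left arm holds 13 combined sites and 3 in each replicate, and the step just right of 75% is the highest in the combined list with 33 sites and holds 17 in each replicate.

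A site was taken as found in a replicate when it overlapped a site of that list by at least 1 bp. Of the 236 combined sites of II, 82 were found in both replicates (34.7%, Wilson 29.0 to 41.0%), 41 in 1 of them and 113 in neither (47.9%, 41.6 to 54.2%). Of the 41, replicate 1 held 19 and replicate 2 held 22. Over all chromosomes 28.8% of combined sites were found in both and 52.4% in neither. On the other chromosomes alone the shares were 28.0% and 53.1%, and neither difference passed the test (Fisher's exact adjusted p = 0.0879 and 0.273). Among the autosomes alone, without X, the share found in both was 34.7% on II against 26.8% elsewhere and passed it (Fisher's exact adjusted p = 0.037). By chromosome the share was 19.9% on I, 32.4% on III, 26.1% on IV, 29.6% on V and 34.5% on X. With all 6 chromosomes, only I passed against the rest, with its lower share (Fisher's exact adjusted p = 0.000133). A site missing from a list fell short of that list's limit and is not shown to be unbound.

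Most replicate sites of II recurred in the other replicate. In replicate 1, 93 of 113 (82.3%, Wilson 74.2 to 88.2%) overlapped a replicate 2 site, beside 79.0% over all chromosomes and 78.4% over the other 5. In replicate 2, 91 of 119 (76.5%, 68.1 to 83.2%) overlapped a replicate 1 site, beside 71.5% over all and 70.6% over the other 5. Neither difference between II and the rest passed the test (Fisher's exact adjusted p = 0.543 and 0.453). With midpoints within 100 bp required, the order turned, to 40.7% on II against 46.9% elsewhere in replicate 1 and 38.7% against 42.7% in replicate 2 (Fisher's exact adjusted p = 0.709 and 0.829).

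Support followed strength on II, as it did on the other chromosomes. The combined list is not independent of the replicate lists, since there are only 2 ChIP samples, so this link may be built in. When the 236 sites were ordered by q and divided into 4 groups of 59, the strongest group held 55 sites found in both replicates (93.2%, Wilson 83.8 to 97.3%). The next held 25, the one after it 2, and the weakest 0, for which the Wilson interval reaches 6.11%. The weakest combined site found in both had q = 1.84e-07. Median −log10 q was 17.0 for sites found in both, 7.54 for those found in 1 replicate and 4.84 for those found in neither. The median widths of these classes were 1248, 640 and 489 bp. On the other chromosomes the same classes had a −log10 q of 16.3, 7.78 and 4.98 and widths of 1101, 670 and 499 bp, in medians. A wider site meets an overlap rule more easily, so width and strength move together here with support, and their parts were not separated. All 7 combined sites of II under 100 bp were found in neither replicate, as were 21 of 22 on the other chromosomes. The narrowest were 4 bp at 5304567 to 5304570 (q = 9.11e-05), 6 bp at 8061741 to 8061746 (q = 3.44e-05) and 22 bp at 6839884 to 6839905 (q = 0.000136). At the other extreme, the site from 5333750 to 5339249, the widest of II after those starting at 7341321 and 2972658, was 5500 bp wide with 3.64e-33 in the combined list and 3.21e-16 and 1.27e-17 in the replicates.

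**Figure D3:**
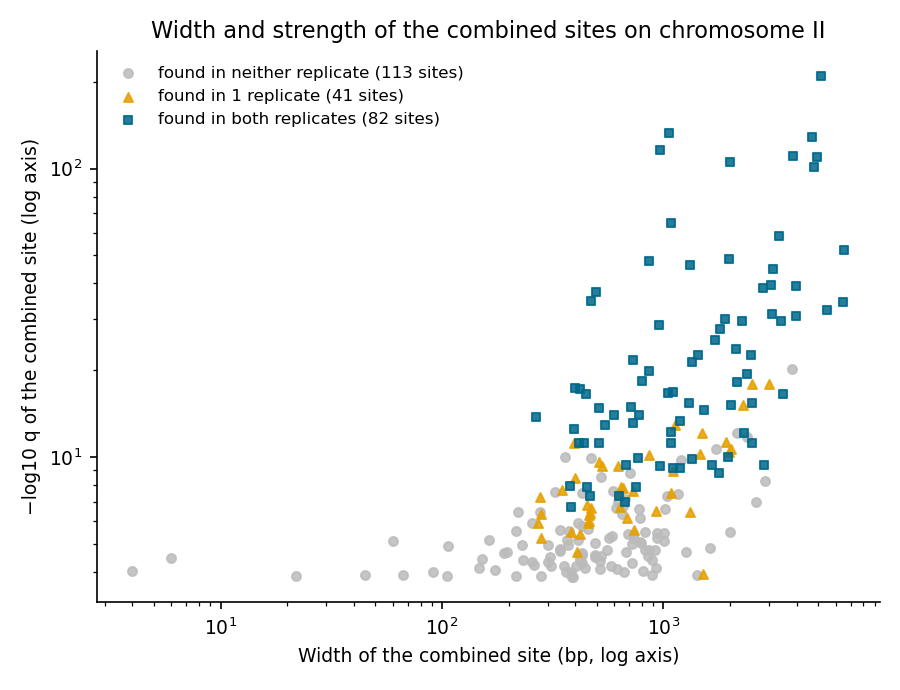
Each point is 1 of the 236 combined sites of chromosome II, by its width in bp (horizontal, log axis) and its −log10 q (vertical, log axis), with squares for the 82 sites found in both replicates, triangles for the 41 found in 1 and circles for the 113 found in neither. Squares fill the upper right and circles the bottom, where every site under 100 bp lies.

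II held 12.9% of all combined sites, and its part among the strongest depended on the limit and the list. At q under 1e-100 the combined list had 8 sites on II and 13 elsewhere, replicate 1 had 1 and 7, and replicate 2 had 1 and 10. At q under 1e-50 the counts were 11 and 45 in the combined list, 10 and 16 in replicate 1 and 9 and 17 in replicate 2. In each replicate, the II site under 1e-100 lay at 10541755 to 10557606, a locus the combined list lacks. The replicate counts under 1e-50 include it and pieces of another such locus. Those began at 14598205 and 14604017 in replicate 1 and at 14599042 and 14603670 in replicate 2. A limit is not alike across lists, since combined −log10 q was near the sum of the replicates' values at matched sites. These limits were chosen after the values were seen, and no test was made. At q under 1e-10 the list had 81 sites on II (34.3%, Wilson 28.6 to 40.6%), beside 29.4% over all chromosomes and 28.6% over the other 5, a difference that did not pass the test (Fisher's exact adjusted p = 0.235).

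The 15 strongest combined sites of II were all found in both replicates, 10 in the centre and 5 on the right arm. The first, from 8742969 to 8748098, ranked 3 in the genome, with a combined q of 2.58e-210, a replicate 1 q of 6.54e-96 and a replicate 2 q of 2.59e-97. The site from 11761606 to 11762663 had 1.03e-133, 4.38e-79 and 7.81e-76 in the same order, and the site from 8477904 to 8482570 had 6.47e-129, 5.13e-58 and 7.37e-68. In each of them the combined list had a far lower q than either replicate. The site from 11756207 to 11757174 had 5.31e-117, 1.49e-71 and 5.26e-65, and the site from 11634073 to 11637915 had 3.41e-111, 1.30e-59 and 7.14e-59. Next came 6344544 to 6349466 with 3.86e-110, 2.28e-57 and 4.66e-55. The last sites under 1e-100 were 5660738 to 5662726 with 6.35e-106, 2.24e-56 and 2.88e-50, and 6887449 to 6892256 with 8.17e-102, 1.76e-49 and 3.05e-48. Between the eighth and ninth sites of II, q rose by many orders of magnitude, since the ninth, from 5543355 to 5544440, had 2.35e-65, 7.77e-34 and 5.24e-27.

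Widths varied within these 15, of which 8 exceeded 3000 bp. The widest combined site of II, from 7341321 to 7347870, was 6550 bp wide with a combined q of 4.11e-53. Its best pieces had only 4.56e-11 in replicate 1, which split it into 2 sites, and 3.00e-14 in replicate 2, which split it into 3. The site from 5844393 to 5845253 was 861 bp wide with 2.33e-48, 1.46e-26 and 3.01e-27, and the one from 11974020 to 11975339 was 1320 bp wide with 4.23e-47, 4.14e-26 and 2.16e-24. The remaining 3 members of the 15 also had their lowest q in the combined list. The site from 9282536 to 9285876 had 2.78e-59, 5.73e-25 and 3.87e-22, and the site from 8819322 to 8821307 had 3.28e-49, 2.54e-23 and 3.63e-24. The last, from 12097088 to 12100203, had 1.76e-45, 3.08e-14 and 3.38e-14.

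The 35 strongest combined sites of II were all found in both replicates, and the next one was found in neither. That site, from 9933519 to 9937345, was 3827 bp wide with q = 7.29e-21, and the nearest replicate site lay 96014 bp away. Of 81 sites of II with q under 1e-10, 5 were found in neither replicate, against 18 of 456 elsewhere. The others were 4090792 to 4092944 (q = 8.07e-13), 15207133 to 15209524 (2.02e-12), 11976739 to 11978467 (2.19e-11) and 14794866 to 14795226 (9.98e-11). The strongest site found in 1 replicate, from 8740192 to 8742691, had q = 1.07e-18 and lay 277 bp left of the strongest site of II, with q = 1.04e-06 in replicate 2. Of the 113 sites found in neither, 26 lay within 2 kb of a replicate site (23.0%, against 18.8% of 845 elsewhere), and their median distance to one was 14976 bp.

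Where the 3 lists could be matched one to one, the combined −log10 q was close to the sum of the replicates' values. This held for 70 combined sites of II, with a median ratio of combined to summed −log10 q of 0.993 and a range of 0.646 to 1.79. All 70 had a lower q in the combined list than in either replicate. Their median width was 1082 bp as combined sites, 809.5 bp as replicate 1 sites and 836.5 bp as replicate 2 sites. In 57 of them the combined site was at least as wide as both replicate sites. The midpoints of both replicate sites lay a median of 51.8 bp apart, within 100 bp in 43 of 70.

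Replicate sites of II less than 500 bp apart were joined into 121 loci, of which 84 were called in both replicates, 18 in replicate 1 alone and 19 in replicate 2 alone. The share called in both was 69.4%, against 59.1% of 751 loci on the other chromosomes, and this difference was not tested. The loci called in 1 replicate were weak, and their median −log10 q was 4.72 where replicate 1 called them and 5.13 where replicate 2 did. The strongest of them had q = 3.67e-08 in replicate 1, from 12787648 to 12788251, and 6.48e-09 in replicate 2, from 5329984 to 5331159. Both had a combined site, with q = 7.23e-11 and 5.86e-11. In 44 of the 84 shared loci replicate 2 had the lower q. Over these loci the −log10 q of the replicates gave Pearson's r = 0.992 and Spearman's rho = 0.808. Without the 2 loci farthest from the median of replicate 1 they were 0.981 and 0.794, and over the 69 loci with a replicate 1 q above 1e-20 they were 0.687 and 0.655. The points are loci of the same libraries, so these coefficients are a description.

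**Figure D4:**
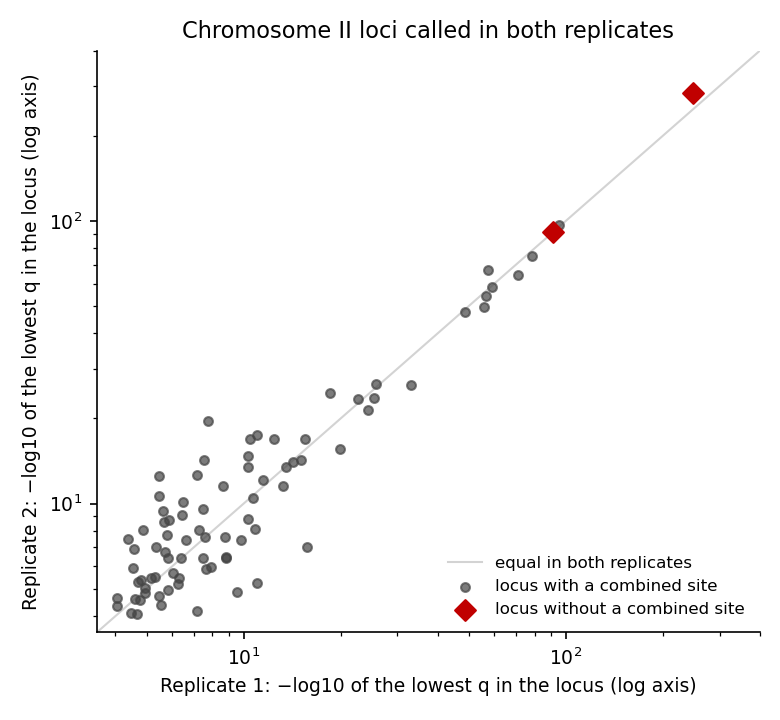
Each point is 1 of the 84 loci of chromosome II called in both replicates, by the −log10 of its lowest q in replicate 1 (horizontal) and replicate 2 (vertical), both on log axes, with the line of equal values. Red diamonds mark the 2 loci without a combined site, and the strongest of all is one of them.

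The combined list had no site at 2 of those 84 loci, and they were among the strongest and broadest of II. Of the 444 shared loci on the other chromosomes, 6 had none. The locus from 10541755 to 10557606 held the widest site of each replicate list over all chromosomes. Replicate 2 called it as 1 site of 15814 bp with q = 4.26e-283, its strongest in the genome. Replicate 1 called a site of 13138 bp with q = 5.63e-249, its second strongest, and a second piece from 10555158 to 10557582 with q = 3.75e-28. The locus made up 11.0% of all bases covered on II in replicate 1 and 10.5% in replicate 2. A combined site began only 733 bp to its right, from 10558340 to 10560120, with q = 1.62e-09. The nearest on the left lay 90960 bp away.

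The other locus, from 14598154 to 14609384, stood on the right arm. Replicate 1 split it into sites of 5441 bp with q = 1.78e-53 and 5038 bp with q = 2.72e-92. Replicate 2 split it into sites of 680, 3576 and 5715 bp with q = 3.00e-06, 1.19e-63 and 6.60e-92. It held 7.43% of the bases covered on II in replicate 1 and 6.64% in replicate 2. The nearest combined sites were 36259 bp to the left and 185481 bp to the right. How the combined list was made is not given in the sources used here, and why these loci are missing from it was not tested. A pair of weak loci called in 1 replicate also had no combined site, from 3972198 to 3972745 (q = 4.65e-05 in replicate 1) and from 4999147 to 4999483 (q = 8.01e-05 in replicate 2).

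Sites with a near neighbour made up a somewhat larger share on II than elsewhere in the combined list, by a difference that did not pass the test. A neighbour less than 2 kb away was present for 109 of 236 combined sites (46.2%, Wilson 39.9 to 52.6%), beside 40.1% over all chromosomes and 39.2% over the other 5 (Fisher's exact adjusted p = 0.139). It passed in replicate 2 (46.2% against 34.1%, Fisher's exact adjusted p = 0.0391), while replicate 1 gave 36.3% against 35.5% (adjusted p = 1), and it passed among combined sites with q under 1e-05 (45.3% against 34.1%, adjusted p = 0.0142). Among the autosomes alone it was 46.2% against 41.2% and did not pass (Fisher's exact adjusted p = 0.617), nor did it with gaps under 5 kb (58.1% against 55.7%, adjusted p = 0.633). The smallest gap was 201 bp in the combined list of II, 203 bp in replicate 1 and 208 bp in replicate 2, and 30 gaps of the combined list were under 500 bp. Whether such neighbours are separate sites or pieces of one broad region was not tested.

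With gaps under 20 kb joined, the combined sites of II formed 116 groups, 62 of them single sites. The 11 groups with 5 or more sites held 69 sites (29.2% of II, against 24.6% elsewhere). Of these 69 sites, 31 were found in both replicates, beside 34.7% of all combined sites of II. Each of the 11 groups included such a site, which a group of many sites does more easily than a single site. Of the 62 single sites, 17 were found in both. A group from 8785170 to 8821307 held 8 combined sites, 6 of them found in both replicates, with 7 sites in replicate 1 and 6 in replicate 2. A group of equal size from 5326080 to 5346652 had 2 of 8 found in both, with 2 and 3 replicate sites. The group from 6821036 to 6853421 had 7 combined sites, of which 6 were found in neither replicate. At the right end, 5 combined sites lay from 15205160 to 15231081, the last site end of II in any list, and 2 of them were found in both.

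The largest group, from 11723948 to 11762663, held 9 combined sites in 38716 bp at the inner edge of the right arm, with 7 sites in each replicate. The 7 were the same places in both replicate lists, each overlapping its counterpart. Strength was concentrated at the right end of the group. There the sites from 11756207 to 11757174 and from 11761606 to 11762663, both about 1 kb wide and already given, flanked another, from 11759163 to 11759635. That middle site was 473 bp wide with a combined q of 1.30e-35, a replicate 1 q of 3.52e-13 and a replicate 2 q of 1.19e-17. Relative to the midpoint of the rightmost one, the midpoints of the others lay at -5.44 and -2.74 kb, so the 3 were nearly evenly spaced.

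To their left, the site from 11746149 to 11748978 had a combined q of 2.77e-39, a replicate 1 q of 4.76e-11 and a replicate 2 q of 2.04e-15. Its neighbour from 11749182 to 11750364 had 4.82e-14, 2.26e-06 and 2.47e-09. The remaining shared members were weak, from 11726450 to 11726829 with 1.20e-08, 2.92e-05 and 1.26e-06, and from 11730928 to 11731681 with 1.25e-08, 4.20e-05 and 3.31e-08. Sites from 11723948 to 11724728 (q = 7.13e-07) and from 11742784 to 11743487 (q = 1.60e-09) were found in neither replicate. The group therefore spans strong and marginal sites within a short stretch.

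**Figure D5:**
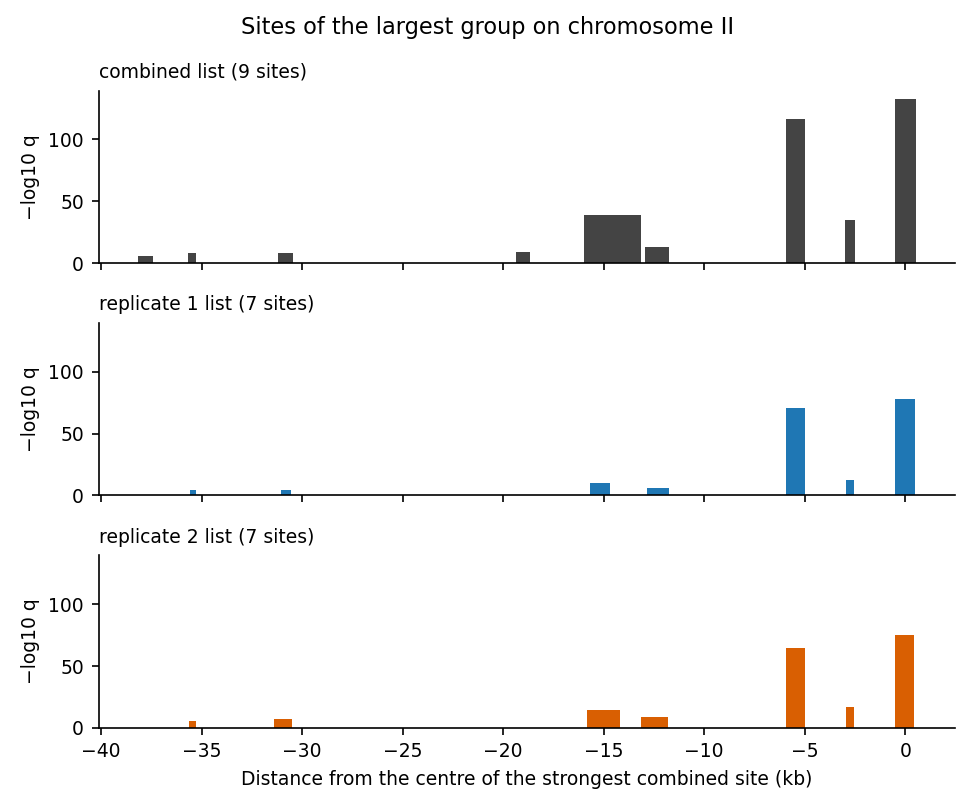
The bars show the −log10 q (vertical) of each site of the group, drawn at its distance in kb from the centre of the strongest combined site (horizontal) and at its own width, or a fixed least width where narrower, for the combined list and each replicate. The tallest bars stand at 0 and -5.44 kb in all 3 lists, with a narrow lower site between them.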

How the data were processed

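The authors deposited 3 site lists, one for each ChIP replicate and a combined one. Sites were called with PeakSeq on WormBase WS180, per the file headers and source column. The q-value of each site, deposited by the authors, was repeated in the score column of every line. PeakSeq's version, the aligner, the pairing with input and the making of the combined list are steps not given in the sources used here. Samples were grouped by title.

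Lists were read with Python 3.11.15, pandas 2.3.3, scipy 1.17.1 and numpy 2.4.6 and drawn with matplotlib 3.10.9. Chromosome length was taken as the end of the rightmost site over the lists. Each chromosome was set against the rest by two-sided Fisher's exact tests, adjusted by Benjamini-Hochberg at a threshold of 0.05. The adjustment ran over 6 chromosomes, or over the autosomes alone where X was left out. Intervals are 95% Wilson intervals. Tests and intervals take sites as independent and cover counting error only. Overlap and test code were checked on simulated lists. The members, tests and naming rule were chosen with earlier results of these data known. Sites named were the 15 strongest, the loci without a combined site, the largest group, the left-arm sites with most support, the strongest with less support, the widest and the narrowest, and the extreme 1 Mb bins. Other groups and strong sites found in neither replicate were named after their values were seen.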

Additional observations from a re-analysis of the deposited data

How the results depend on the processing

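Of 48 alternative values over 6 results, 41 had the same direction and the same call. The right-hand lean of II passed in all 10 alternatives run, from 61.4% with the span cut at its middle to 96.6% among sites found in both replicates or with q under 1e-10. The share of replicate sites found in the other replicate changed its order against the other chromosomes under stricter overlap, without passing the test. With reciprocal overlap of at least 50% it was 64.6% on II against 67.8% in replicate 1 and 61.3% against 61.7% in replicate 2, and with midpoints within 100 bp 40.7% and 38.7%. Results that passed only under an alternative were the share found in both replicates among autosomes (34.7% against 26.8%) and the share with a near neighbour, at q under 1e-05 (45.3%) and in replicate 2 (46.2%). The first of these leaves out X, where the share was 34.5%. The cause of the others was not tested. Adding the loci without a combined site was chosen after the data were seen and changed no call. No paired analysis was possible because values of the input samples were not analysed here and what is compared are site lists, not samples. Unknown read depth leaves sites near the q limit undecided where 1 list lacks them.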
